A study of Mus musculus with 12 samples.

Results

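Embryoid bodies with doxycycline-inducible Mixl1 collected on day 4 (the group D3Dox_d4) were compared directly with those collected on day 2 (D1Dox_d2) across all genes. The members are the 6 libraries whose titles carry these group names, 3 in each group, of 12 libraries in the series. All 12 were made from total RNA of mouse epiblast stem cells (EpiSCs), pluripotent cells that resemble the epiblast of the implanted embryo, which the study had derived in culture from embryonic stem cells. The cells carry a FLAG-tagged Mixl1 transgene switched on by doxycycline (the line Mixl1DOX), and EpiSC colonies were lifted with collagenase and kept under slow rotation in serum medium, where they form embryoid bodies. D3Dox_d4 received doxycycline at 1 µg/mL and was collected on day 4, and D1Dox_d2 received the same dose and was collected on day 2. NoDox_d4 and NoDox_d2 are the same line on days 4 and 2 without the drug, and their values are set beside those of the induced groups.

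Several features limit what the groups model. No label says what the D3 or D1 in a group name counts, so they are used as names, and the induced groups also differ in the day of collection. The timing of induction and the day cannot be told apart within these 6 libraries. The NoDox groups are labelled as without the drug, so effects of the drug itself and of the gene it induces cannot be told apart either. The labels do not state whether the line is 1 clone or whether replicates were separate cultures, and p-values therefore measure the spread between libraries, which may be technical.

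Mixl1 is a paired-type homeobox transcription factor that embryos express in the primitive streak and in the mesoderm and endoderm leaving it. It acts in a network with Nodal signalling and with Eomes and T, and mouse embryos without it have defects of the axial mesoderm, heart and gut. Epiblast cells that do not enter the streak form ectoderm, including the neural plate, where Sox and Zic factors mark progenitors, proneural factors start neuron formation and Delta ligands act on Notch receptors of neighbouring cells.

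Mixl1 itself (chr1:180693043-180697034, minus strand, GRCm38/mm10) differed little between the induced groups. It stood at 478, 418 and 449.6 CPM in D3Dox_d4, against 392, 362 and 387 CPM in D1Dox_d2. CPM are counted read pairs scaled to a common library total, with TMM factors that set the bulk of genes level across the 12 libraries. Reads of the transgene and of the endogenous gene share its coding sequence and are counted together. The lowest D3Dox_d4 library lay above the highest D1Dox_d2 library, and the level was 1.16-fold higher (log2 fold change 0.22 ± 0.08 SE, adjusted p = 0.0386). Adjusted p are from edgeR's quasi-likelihood test, with Benjamini-Hochberg adjustment over all genes tested, here and below. SE is an approximate standard error, worked back from the fitted log2 fold change and the F statistic of that test. It was not estimated directly and is unreliable where counts are few. The exact two-sided permutation test over libraries gave p = 0.1, the smallest that 3 against 3 allows. The call was lost with upper-quartile scaling (adjusted p = 0.0619), with all 12 libraries in the fit (adjusted p = 0.875) and when D3Dox_d4 replicate 3 or any of the D1Dox_d2 replicates was left out (adjusted p = 0.0601 to 0.155). Without doxycycline Mixl1 was at 1.62, 1.83 and 1.11 CPM in NoDox_d4 and 91, 0.593 and 1.15 CPM in NoDox_d2, so 1 NoDox_d2 library stood far above its replicates.

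Totals of counted read pairs ranged from 24744652 to 27713836 in D3Dox_d4 and from 24100487 to 26032142 in D1Dox_d2. The first principal component of the 6 libraries held 90.4% of the variance and separated the groups, and D3Dox_d4 replicate 1 lay apart from its replicates on the second, which held 4.83%. Between 1.48% and 1.93% of counts in D3Dox_d4 and between 2.63% and 8.61% in D1Dox_d2 went to CT010467.1, a clone-named gene, with the highest share in D1Dox_d2 replicate 3. Replicate 1 of NoDox_d4 and of NoDox_d2 stood apart from the other NoDox libraries. Pou5f1, Nanog and Sox2 were present in every library. No level was set for them, so their presence does not identify the cells as EpiSCs. The list of fibroblast feeder markers, and the sex-linked transcripts Xist, Ddx3y, Eif2s3y and Uty, were high in D1Dox_d2 and are described with their values further on.

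The comparison reached a large part of the transcriptome. Of 17197 genes tested, 10562 were called at an adjusted p under 0.05 (61.4%), 5323 of them higher in D3Dox_d4 (31.0%) and 5239 lower (30.5%). At a log2 fold change of at least 1, 2174 called genes were higher and 2254 lower. At 3 or more the split was 239 higher and 509 lower, and at 5 or more it was 29 higher and 105 lower, so the largest changes were more often decreases. The median log2 fold change over all genes was -0.01. When a fold of more than 1.5 was required by the test itself, 4871 genes were called, 2484 higher and 2387 lower. Libraries of the groups did not overlap for 11565 genes (67.3%). Each list below is read against the shares of 31.0% and 30.5%, and its median against that of all genes.

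**Figure D1:**
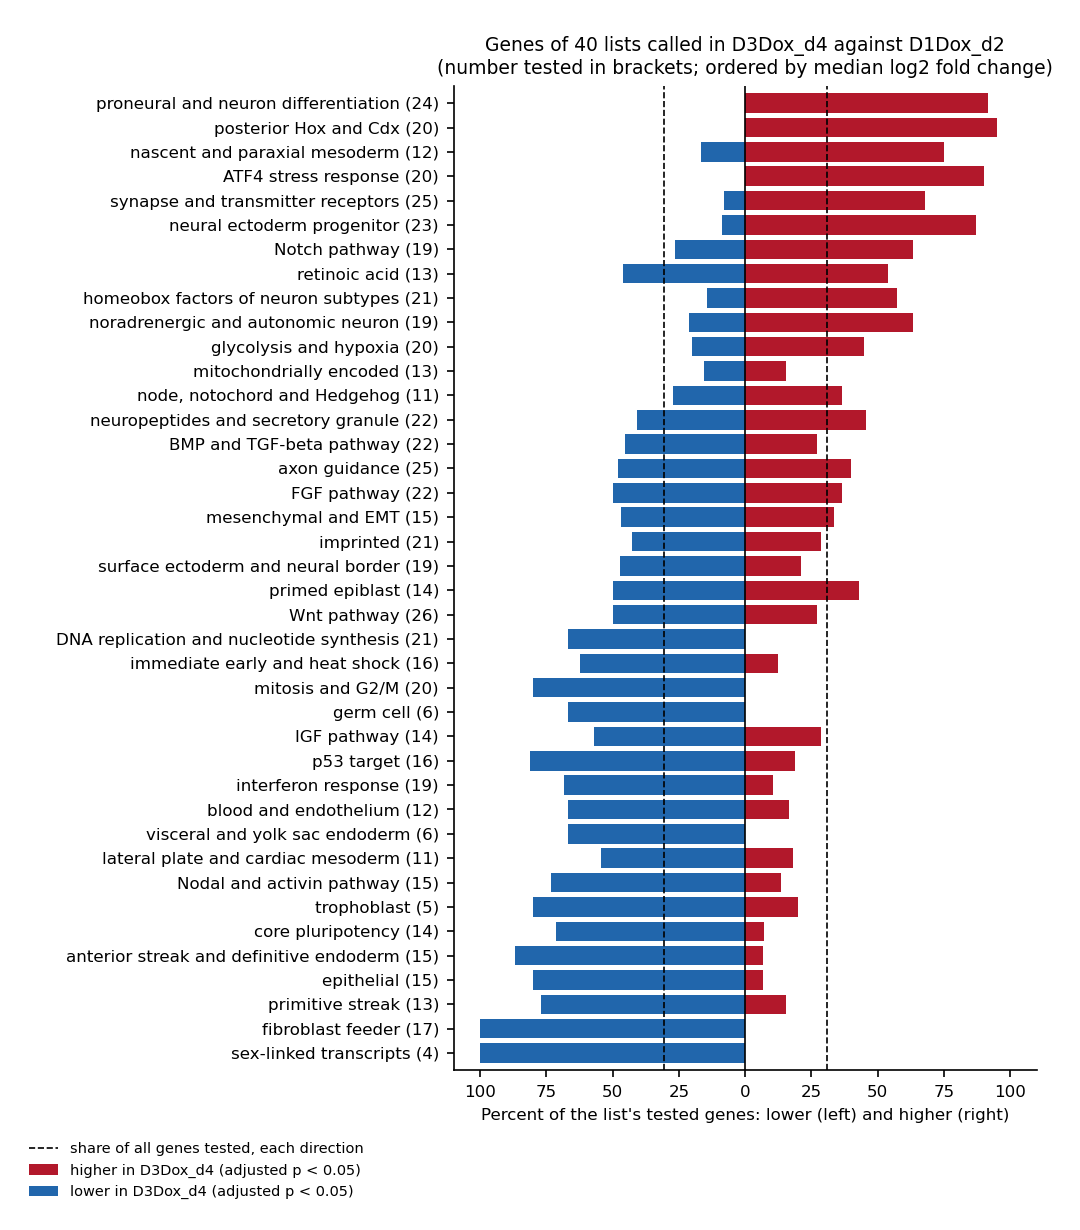
Share of the tested genes of each of 40 gene lists that were called higher (right, red) or lower (left, blue) in D3Dox_d4 than in D1Dox_d2; dashed lines give the shares over all 17197 genes, 31.0% and 30.5%. Neuron, Hox and Cdx, paraxial mesoderm and ATF4 lists lie on the higher side, and streak, endoderm, pluripotency, epithelial and fibroblast lists on the lower side.

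Several of the genes with the largest increases are known from the nervous system. Genes were ranked among those called, with at least 5 CPM in the higher group and no overlap between libraries of the groups. The 12 with the highest log2 fold changes included Hes5, P2rx3, Pantr1, Hoxb5os, Zic1, Gsx1, Trim66, Pou3f3, Cyp26b1, Dcc and Mir124-2hg. Hes5, a Notch-responsive repressor that keeps neural progenitors undifferentiated, was at 48.9, 32.1 and 33.5 CPM in D3Dox_d4, against 0.265, 0.203 and 0.26 CPM in D1Dox_d2 (log2 fold change 7.25 ± 0.27 SE, adjusted p = 1.61e-08). P2rx3, an ATP-gated channel of sensory neurons, was at 109, 98.9 and 131 CPM in D3Dox_d4, against 1.51, 1.3 and 1.21 CPM in D1Dox_d2 (log2 fold change 6.36 ± 0.15 SE, adjusted p = 1.52e-09). That libraries of the groups do not overlap for these genes was a condition of the ranking. Gsx1, a homeobox factor of dorsal interneuron and forebrain progenitors, was at 28.1, 20.1 and 27.7 CPM in D3Dox_d4, against 0.833, 0.448 and 0.347 CPM in D1Dox_d2 (log2 fold change 5.49 ± 0.25 SE, adjusted p = 4.01e-08). Pou3f3 and its neighbour Pantr1, a noncoding RNA transcribed from the same region, rose together, with log2 fold changes of 5.29 and 6.32. Mir124-2hg, a host transcript of the neuronal microRNA miR-124, rose by 4.91 and the netrin receptor gene Dcc by 5.02 on the log2 scale. For Hes5 20.3% of exon bases, and for Hoxb5os 14.4%, overlap a gene on the opposite strand, and reads there cannot be assigned with unstranded counting.

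The genes with the largest decreases include secreted proteases, a protease inhibitor and signalling proteins. The 12 lowest, ranked under the same conditions, were Dynap, Tfpi2, Pi15, Mmp3, Anxa8, Fgfbp1, Inhba, Mmp10, Dmbt1, C3ar1, Tm4sf1 and Edn1. Mmp3, a matrix metalloprotease, was at 0.904, 0.885 and 1.19 CPM in D3Dox_d4, against 158, 119 and 142 CPM in D1Dox_d2 (log2 fold change -7.15 ± 0.16 SE, adjusted p = 1.52e-09). The gene was abundant in every D1Dox_d2 library and near 1 CPM in every D3Dox_d4 library. Inhba, the subunit that forms activin A, was at 0.47, 0.295 and 0.159 CPM in D3Dox_d4, against 32.2, 28.6 and 45 CPM in D1Dox_d2 (log2 fold change -6.81 ± 0.29 SE, adjusted p = 2.88e-08). Edn1, the vasoconstrictor endothelin-1, was at 0.253, 0.147 and 0.0398 CPM in D3Dox_d4, against 8.64, 8.91 and 12.5 CPM in D1Dox_d2 (log2 fold change -6.03 ± 0.35 SE, adjusted p = 1.76e-07). Tfpi2, a Kunitz-type protease inhibitor, had 1 read pair in D3Dox_d4 and 668 in D1Dox_d2, a ratio of 721 with a counting interval of 129 to 28508. For Dynap, a membrane protein, the counts were 1 and 1269, a ratio of 1369 with an interval of 245 to 54120. These are exact 95% intervals that cover counting error only.

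Most neural progenitor factors were higher in D3Dox_d4 than in D1Dox_d2. In all, 20 of 23 tested genes of the neural ectoderm progenitor list were higher in D3Dox_d4, 2 were lower and 1 was not called, with a median log2 fold change of 1.00. With all 12 libraries in the fit, 13 were higher and 1 was lower. The list summed to 1428 to 1622 CPM in D3Dox_d4 and 854.3 to 928.4 CPM in D1Dox_d2. Without the drug the sum was 1278 to 2713 CPM in NoDox_d4 and 1135 to 1960 CPM in NoDox_d2. Replicates 2 and 3 of both NoDox groups lay above every D3Dox_d4 library. Zic1, a zinc finger factor of the dorsal neural plate, was at 107, 75.2 and 89.7 CPM in D3Dox_d4, against 2.01, 1.38 and 2.47 CPM in D1Dox_d2 (log2 fold change 5.52 ± 0.20 SE, adjusted p = 1.36e-08). Pax6, a factor of the brain and spinal cord, was at 30.6, 22.2 and 28.8 CPM in D3Dox_d4, against 3.48, 3.58 and 4.16 CPM in D1Dox_d2 (log2 fold change 2.84 ± 0.15 SE, adjusted p = 1.05e-07). En2, which patterns the midbrain and hindbrain, rose by 2.84 on the log2 scale and its paralogue En1 by 0.81. The pan-neural Sox factors had smaller log2 fold changes, at 0.77 for Sox1, 1.00 for Sox3 and 0.68 for Sox2. Olig3, a factor of dorsal spinal cord progenitors, fell, at 2.09 ± 0.418 CPM in D3Dox_d4 and 3.96 ± 0.805 CPM in D1Dox_d2 (SD, n = 3 each).

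Factors that commit cells to neurons, and the proteins neurons make, rose too. In all, 22 of 24 tested genes of the proneural and neuron list were higher, none was lower and 2 were not called, and the median log2 fold change was 2.35. The list's summed level was 3027 to 3429 CPM in D3Dox_d4, against 642 to 821.8 CPM in D1Dox_d2, 291.7 to 993 CPM in NoDox_d4 and 360.5 to 579.6 CPM in NoDox_d2. Neurod4, a helix-loop-helix proneural factor, was at 664, 599 and 710.3 CPM in D3Dox_d4, against 111, 76.6 and 84.4 CPM in D1Dox_d2 (log2 fold change 2.84 ± 0.14 SE, adjusted p = 5.77e-08). Without the drug it averaged 10.2 CPM in NoDox_d4 and 9.37 CPM in NoDox_d2, below either induced group. Neurod1 was at 29.8, 25.1 and 26.7 CPM in D3Dox_d4, against 2.58, 1.67 and 2.56 CPM in D1Dox_d2 (log2 fold change 3.56 ± 0.16 SE, adjusted p = 4.06e-08). Neurog2, which starts the proneural cascade, was at 45.9, 40.2 and 43.1 CPM in D3Dox_d4, against 11.1, 6.92 and 8.06 CPM in D1Dox_d2 (log2 fold change 2.29 ± 0.15 SE, adjusted p = 5.39e-07). Markers of neurons that have left the cell cycle were also higher. Tubb3, the neuronal beta-tubulin, was at 500.0, 388 and 442 CPM in D3Dox_d4, against 124, 85.5 and 96.3 CPM in D1Dox_d2 (log2 fold change 2.10 ± 0.14 SE, adjusted p = 5.80e-07). Elavl3, an RNA-binding protein of new neurons, rose by 3.15 on the log2 scale, the microtubule protein Dcx by 3.25 and the zinc finger factor Myt1 by 4.07. Stmn2, a growth-cone protein, was already abundant in D1Dox_d2, at 198 ± 19.1 CPM in D3Dox_d4 and 122 ± 7.22 CPM in D1Dox_d2 (SD, n = 3 each, log2 fold change 0.68 ± 0.09 SE, adjusted p = 7.96e-05). The genes not called were Syt1, a synaptic vesicle calcium sensor, at 18.1 ± 2.15 CPM in D3Dox_d4 and 15.5 ± 1.53 CPM in D1Dox_d2 (SD, n = 3 each), and the neurofilament gene Nefm, at 0.276 ± 0.131 CPM in D3Dox_d4 and 0.512 ± 0.229 CPM in D1Dox_d2 (SD, n = 3 each).

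Genes of synapses and transmitter receptors were higher in 17 of 25 cases and lower in 2, with a median log2 fold change of 1.41. The nicotinic acetylcholine receptor genes Chrna3, Chrnb4 and Chrna4 rose by 3.01, 2.20 and 2.34 on the log2 scale. Chrna3, the main subunit in autonomic ganglia, was at 231, 229 and 254 CPM in D3Dox_d4, against 33.4, 26.9 and 26.9 CPM in D1Dox_d2. Gjd2, which forms electrical synapses, was at 29, 28.9 and 33.5 CPM in D3Dox_d4, against 2.16, 1.55 and 2.25 CPM in D1Dox_d2 (log2 fold change 3.92 ± 0.15 SE, adjusted p = 1.77e-08) and was near 0 without doxycycline, at means of 0.0644 CPM in NoDox_d4 and 0.0849 CPM in NoDox_d2. The serotonin receptor subunits Htr3a and Htr3b were not called. Htr3a averaged 73.2 ± 2.54 CPM in D3Dox_d4 and 71.7 ± 5.79 CPM in D1Dox_d2 (SD, n = 3 each), and its NoDox means were 1.75 CPM in NoDox_d4 and 2.87 CPM in NoDox_d2. Gad2, which makes GABA, was lower, at 4.21 ± 0.271 CPM in D3Dox_d4 and 12.5 ± 0.859 CPM in D1Dox_d2 (SD, n = 3 each, log2 fold change -1.59 ± 0.13 SE, adjusted p = 1.81e-06), and so was the receptor gene Gabra2, which was at 0.0497 CPM in D3Dox_d4 and 0.893 CPM in D1Dox_d2.

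**Figure D2:**
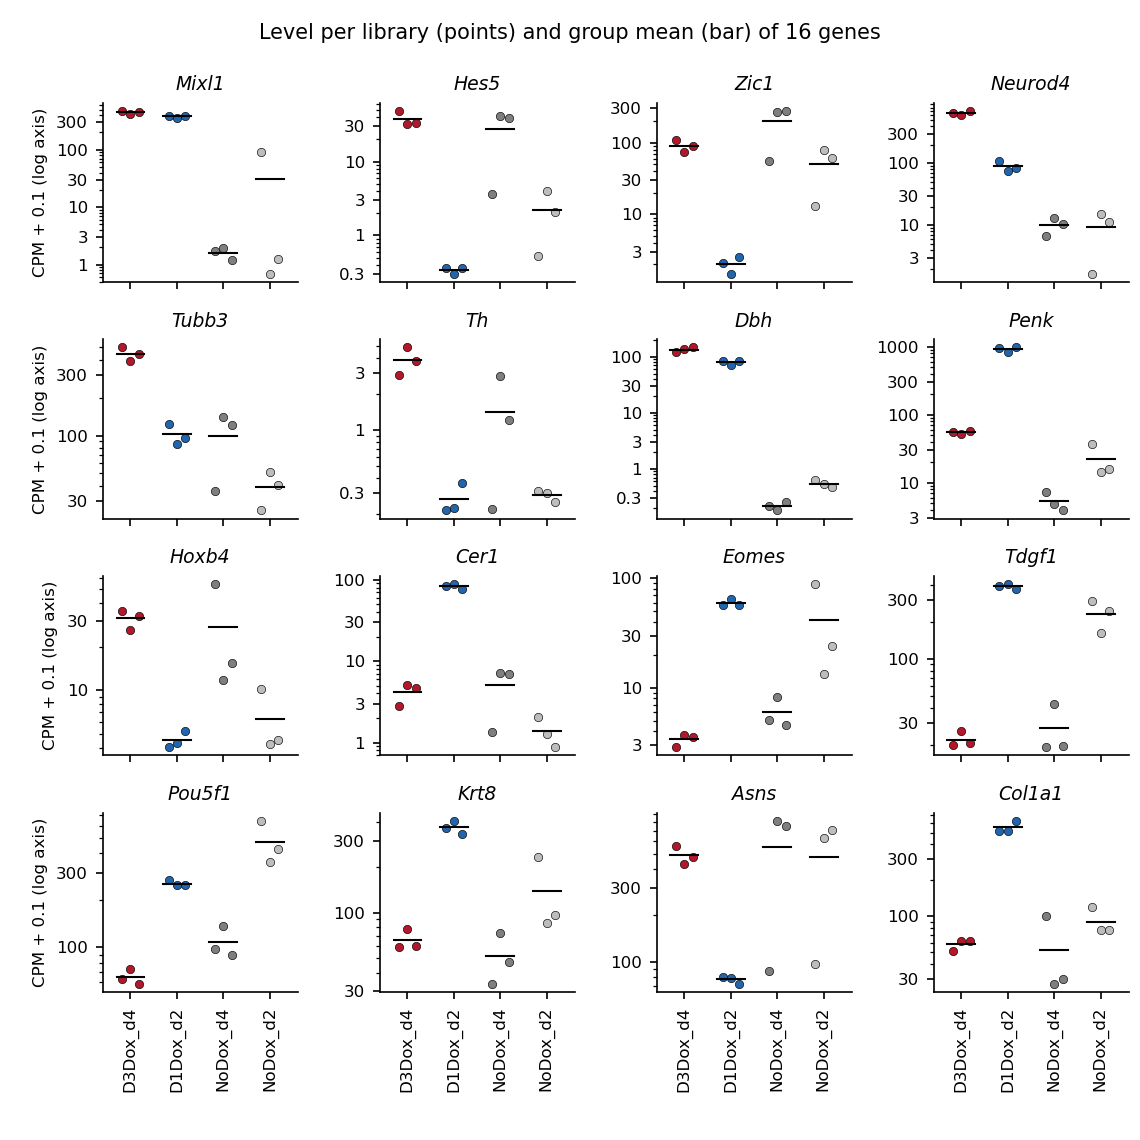
Level of 16 genes in each library, as CPM plus 0.1 on a log axis, with D3Dox_d4 left of D1Dox_d2 and NoDox_d4 left of NoDox_d2; points are libraries and bars are group means. Mixl1 differs little among the 6 induced libraries, while Hes5, Zic1 and Neurod4 are higher and Penk, Cer1, Eomes and Tdgf1 lower in D3Dox_d4.

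Notch ligands rose, and the pathway's target genes were divided. Of 19 Notch pathway genes, 12 were higher, 5 lower and 2 not called, with a median log2 fold change of 0.96. The ligand Dll1 was at 104, 111 and 98.8 CPM in D3Dox_d4, against 14.6, 10.5 and 11.9 CPM in D1Dox_d2 (log2 fold change 3.07 ± 0.12 SE, adjusted p = 2.03e-08), and Dll3, a ligand that acts inside the cell, was at 83.4, 70.1 and 73.3 CPM in D3Dox_d4, against 17.6, 13 and 12.7 CPM in D1Dox_d2 (log2 fold change 2.37 ± 0.13 SE, adjusted p = 1.43e-07). Both had no overlap between the groups. Hey1, a target gene of the pathway, rose by 2.09 on the log2 scale. Other pathway genes moved the other way. Hes1, a repressor like Hes5, averaged 35.1 ± 2.55 CPM in D3Dox_d4 and 49.9 ± 3.96 CPM in D1Dox_d2 (SD, n = 3 each, log2 fold change -0.53 ± 0.09 SE, adjusted p = 6.86e-04). The receptor gene Notch3 averaged 91.5 ± 19.6 CPM in D3Dox_d4 and 158 ± 11.2 CPM in D1Dox_d2 (SD, n = 3 each, log2 fold change -0.81 ± 0.14 SE, adjusted p = 5.25e-04), and the target Heyl 1.51 ± 0.414 CPM in D3Dox_d4 and 4.57 ± 1.04 CPM in D1Dox_d2 (SD, n = 3 each, log2 fold change -1.62 ± 0.26 SE, adjusted p = 3.02e-04). Hey2 did not pass, at 3.73 ± 0.365 CPM in D3Dox_d4 and 2.6 ± 0.608 CPM in D1Dox_d2 (SD, n = 3 each, log2 fold change 0.50 ± 0.21 SE, adjusted p = 0.0633).

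The promoter of Hes5, the gene with the highest fold change among those named, is shown beside that of Hey2, which was not called, because both hold the motif of RBPJ, the DNA-binding partner of Notch. RefSeq promoters of GRCm38.p6 cover 250 bases before the start site and 50 from it on. The letters searched were GTGGGAA and its reverse complement TTCCCAC, and matches are in capitals. Hes5 lies at chr4:154960673-154960972 on the plus strand and Hey2 at chr10:30842734-30843033 on the minus strand, each written 5′ to 3′ along its own strand.
Hes5: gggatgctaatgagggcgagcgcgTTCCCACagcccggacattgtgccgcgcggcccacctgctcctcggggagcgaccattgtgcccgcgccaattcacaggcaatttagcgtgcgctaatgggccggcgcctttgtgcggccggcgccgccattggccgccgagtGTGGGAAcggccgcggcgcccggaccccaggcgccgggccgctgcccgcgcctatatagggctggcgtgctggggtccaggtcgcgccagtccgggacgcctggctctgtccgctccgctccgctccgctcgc
Hey2: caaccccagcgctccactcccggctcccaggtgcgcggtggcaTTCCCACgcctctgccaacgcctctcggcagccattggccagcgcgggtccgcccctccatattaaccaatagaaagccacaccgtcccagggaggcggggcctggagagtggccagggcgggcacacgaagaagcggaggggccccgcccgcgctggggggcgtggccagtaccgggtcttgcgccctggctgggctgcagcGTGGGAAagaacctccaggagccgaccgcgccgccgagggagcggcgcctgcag
Each promoter holds 2 matches, 1 on each strand. The motif is in 2097 of 32851 promoters (6.38%), and 1958 of 27025 gene symbols (7.25%) have a promoter that holds it. The list below is counted by gene symbol and holds known target genes of the pathway, so its count describes the list. Of the 19 Notch pathway genes, 14 matched a promoter in the table and 4 of these hold it, namely Hes5, Hes7, Hey2 and Lfng. A match is a run of letters and no measured binding, and it was present in a gene that rose and in one that was not called.

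Most noradrenergic genes rose, and several were near 0 without doxycycline. Of 19 genes of the noradrenergic and autonomic list, 12 were higher, 4 lower and 3 not called, with a median log2 fold change of 0.57. With all 12 libraries in the fit, 8 were higher and 2 lower. Dbh, which converts dopamine to noradrenaline, was at 120.4, 135 and 147 CPM in D3Dox_d4, against 85.1, 71.3 and 84.1 CPM in D1Dox_d2 (log2 fold change 0.73 ± 0.10 SE, adjusted p = 1.07e-04) and at means of 0.118 CPM in NoDox_d4 and 0.445 CPM in NoDox_d2 without the drug. Tlx2, a homeobox factor of enteric and autonomic cells, averaged 40.1 ± 4.41 CPM in D3Dox_d4 and 29.2 ± 3.95 CPM in D1Dox_d2 (SD, n = 3 each, log2 fold change 0.44 ± 0.12 SE, adjusted p = 0.00852), against NoDox means of 0.0271 CPM in NoDox_d4 and 0.494 CPM in NoDox_d2. For Dbh and Tlx2 the means of the induced groups lay closer to each other than to those of the NoDox groups, a difference that was not tested. Th, the rate-limiting enzyme of the pathway, had the highest log2 fold change of the list but stayed low, at 2.78, 4.79 and 3.7 CPM in D3Dox_d4, against 0.114, 0.122 and 0.26 CPM in D1Dox_d2 (log2 fold change 4.47 ± 0.38 SE, adjusted p = 3.11e-06). The vesicular transporter Slc18a2 rose by 2.21 on the log2 scale. Gata3 and Gata2, which sympathetic neurons use, were lower. Gata3 averaged 6.46 ± 1.54 CPM in D3Dox_d4 and 33.2 ± 3.21 CPM in D1Dox_d2 (SD, n = 3 each, log2 fold change -2.38 ± 0.16 SE, adjusted p = 6.01e-07), and Gata2 10.2 ± 0.297 CPM in D3Dox_d4 and 14 ± 1.66 CPM in D1Dox_d2 (SD, n = 3 each, log2 fold change -0.47 ± 0.12 SE, adjusted p = 0.00554). The filament gene Prph fell by 1.34 on the log2 scale.

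Neuropeptide genes moved in both directions. Of 22 tested, 10 were higher, 9 lower and 3 not called, and the median log2 fold change was -0.01. Penk, the enkephalin precursor, was at 55, 52.5 and 56.6 CPM in D3Dox_d4, against 944, 834 and 979.7 CPM in D1Dox_d2 (log2 fold change -4.09 ± 0.10 SE, adjusted p = 1.52e-09), 17-fold lower in D3Dox_d4. Tac1, which encodes substance P, was at 1.01, 0.406 and 1.23 CPM in D3Dox_d4, against 28.7, 24.5 and 27.6 CPM in D1Dox_d2 (log2 fold change -4.95 ± 0.23 SE, adjusted p = 5.06e-08). Npy and Grp were also near 0 in D3Dox_d4, at means of 0.496 CPM in D3Dox_d4 and 11 CPM in D1Dox_d2 for Npy and of 0.772 CPM in D3Dox_d4 and 11.1 CPM in D1Dox_d2 for Grp. In the other direction, Sst, the somatostatin precursor, averaged 16.7 ± 2.88 CPM in D3Dox_d4 and 3.66 ± 1.14 CPM in D1Dox_d2 (SD, n = 3 each, log2 fold change 2.16 ± 0.21 SE, adjusted p = 7.78e-06), and Gal, which encodes galanin, averaged 16.9 ± 3.31 CPM in D3Dox_d4 and 3.82 ± 0.639 CPM in D1Dox_d2 (SD, n = 3 each, log2 fold change 2.12 ± 0.18 SE, adjusted p = 2.79e-06). The granule proteins Scg3, Scg5 and Scg2 rose by 3.56, 3.05 and 1.99 on the log2 scale. Vip, a peptide of autonomic neurons, was high in both groups, at 129.5, 124 and 138 CPM in D3Dox_d4, against 111, 93 and 117 CPM in D1Dox_d2 (log2 fold change 0.27 ± 0.10 SE, adjusted p = 0.0325), and its NoDox means were 0.0132 CPM in NoDox_d4 and 0.159 CPM in NoDox_d2. The call of Vip was lost without D3Dox_d4 replicate 3 and without D1Dox_d2 replicate 1 or 2 (adjusted p = 0.0509 to 0.147).

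Homeobox factors of neuron subtypes were more often higher than lower, with 12 of 21 higher, 3 lower, 6 not called and a median log2 fold change of 0.61. Without D3Dox_d4 replicate 3, 5 were lower. Dbx1 of ventral interneuron progenitors, Lmx1b of dopaminergic and dorsal horn neurons and Otp of hypothalamic neurons rose by 3.49, 3.29 and 2.46 on the log2 scale. Otp was at 11.8, 12.4 and 15.3 CPM in D3Dox_d4, against 2.31, 2.32 and 2.43 CPM in D1Dox_d2, and its NoDox means were 0.0135 CPM in NoDox_d4 and 0 CPM in NoDox_d2. Barhl2, a factor of retinal and dorsal spinal neurons, fell, at 3.74 ± 0.952 CPM in D3Dox_d4 and 22.7 ± 3.07 CPM in D1Dox_d2 (SD, n = 3 each). Genes of axon guidance were divided, with 10 of 25 higher and 12 lower, and 6 were higher without D1Dox_d2 replicate 2. The receptors Dcc and Robo2 and the ligand Slit1 rose by 5.02, 2.59 and 3.35, while the ligand Sema3e and the receptors Epha3 and Nrp2 fell by 2.56, 2.69 and 1.86 on the log2 scale. Nrp2 averaged 223 ± 46.3 CPM in D3Dox_d4 and 798 ± 65.4 CPM in D1Dox_d2 (SD, n = 3 each).

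Nearly all tested Hox and Cdx genes of the list were higher. The list is named posterior Hox and Cdx but also holds anterior genes such as Hoxa2. Of 20 tested genes, 19 were higher, none was lower and Cdx1 was not called, and the median log2 fold change was 2.06. With all 12 libraries in the fit, 12 were higher. Hoxb4 was at 35, 26.1 and 32.5 CPM in D3Dox_d4, against 3.94, 4.19 and 5.11 CPM in D1Dox_d2 (log2 fold change 2.81 ± 0.15 SE, adjusted p = 1.02e-07). Hoxa3 was at 47.9, 49 and 55.8 CPM in D3Dox_d4, against 8.48, 7.32 and 11.5 CPM in D1Dox_d2 (log2 fold change 2.47 ± 0.15 SE, adjusted p = 2.60e-07) and Hoxc6 was at 30.6, 16.1 and 20.6 CPM in D3Dox_d4, against 2.88, 2.52 and 3.29 CPM in D1Dox_d2 (log2 fold change 2.93 ± 0.24 SE, adjusted p = 2.10e-06). Log2 fold changes were 2.72 for the anterior gene Hoxa2, 1.32 for the posterior gene Hoxb9 and 1.17 for Cdx2, which activates Hox genes. Neighbouring genes of a cluster overlap, and 27.3% of the exon bases of Hoxb2 and 27.1% of those of Hoxb3 lie opposite Hoxb3os. The list summed to 479.7 to 609.7 CPM in D3Dox_d4 and 150.4 to 168.5 CPM in D1Dox_d2, against 418 to 1293 CPM in NoDox_d4 and 335 to 609.8 CPM in NoDox_d2.

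Most tested genes of paraxial mesoderm, the source of somites, rose. Of 12 tested genes, 9 were higher, 2 lower and 1 not called, with a median log2 fold change of 2.02. With all 12 libraries in the fit, 7 were higher and 1 lower. Mesp2, Msgn1 and Ripply2 of this list fell under the filter on low counts, at no more than 0.478 CPM in any induced library. Meox1, a somite homeobox factor, was at 17.8, 19.1 and 15.6 CPM in D3Dox_d4, against 0.795, 1.22 and 0.867 CPM in D1Dox_d2 (log2 fold change 4.17 ± 0.18 SE, adjusted p = 3.16e-08), and the protocadherin Pcdh8 at 17.1, 15.4 and 14.6 CPM in D3Dox_d4, against 2.96, 2.16 and 1.86 CPM in D1Dox_d2 (log2 fold change 2.73 ± 0.17 SE, adjusted p = 3.06e-07). Tbx6, which specifies this tissue, averaged 4.12 ± 0.97 CPM in D3Dox_d4 and 1.15 ± 0.258 CPM in D1Dox_d2 (SD, n = 3 each, log2 fold change 1.82 ± 0.26 SE, adjusted p = 1.30e-04). All 3 were at higher means in NoDox_d4 than in D3Dox_d4, with 103 CPM for Meox1, 134 CPM for Pcdh8 and 5.56 CPM for Tbx6, a difference that was not tested. Pdgfra and Cited1 fell, by 0.54 and 2.25 on the log2 scale. With all 12 libraries in the fit, the calls of Tbx6 (adjusted p = 0.0906) and Pdgfra (adjusted p = 0.528) were lost. Of the retinoic acid genes, 7 of 13 were higher and 6 lower. Cyp26b1, which degrades retinoic acid, was at 93.9, 102 and 91.2 CPM in D3Dox_d4, against 2.08, 2.81 and 2.82 CPM in D1Dox_d2 (log2 fold change 5.21 ± 0.13 SE, adjusted p = 1.52e-09), and the binding protein gene Crabp1 at 2277, 1716 and 1860.0 CPM in D3Dox_d4, against 366, 335 and 297 CPM in D1Dox_d2 (log2 fold change 2.53 ± 0.13 SE, adjusted p = 7.01e-08). Aldh1a2, which makes retinoic acid in mesoderm, rose by 2.69 on the log2 scale, whereas its paralogues Aldh1a1 and Aldh1a3 fell by 3.27 and 2.75 on the log2 scale.

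**Figure D3:**
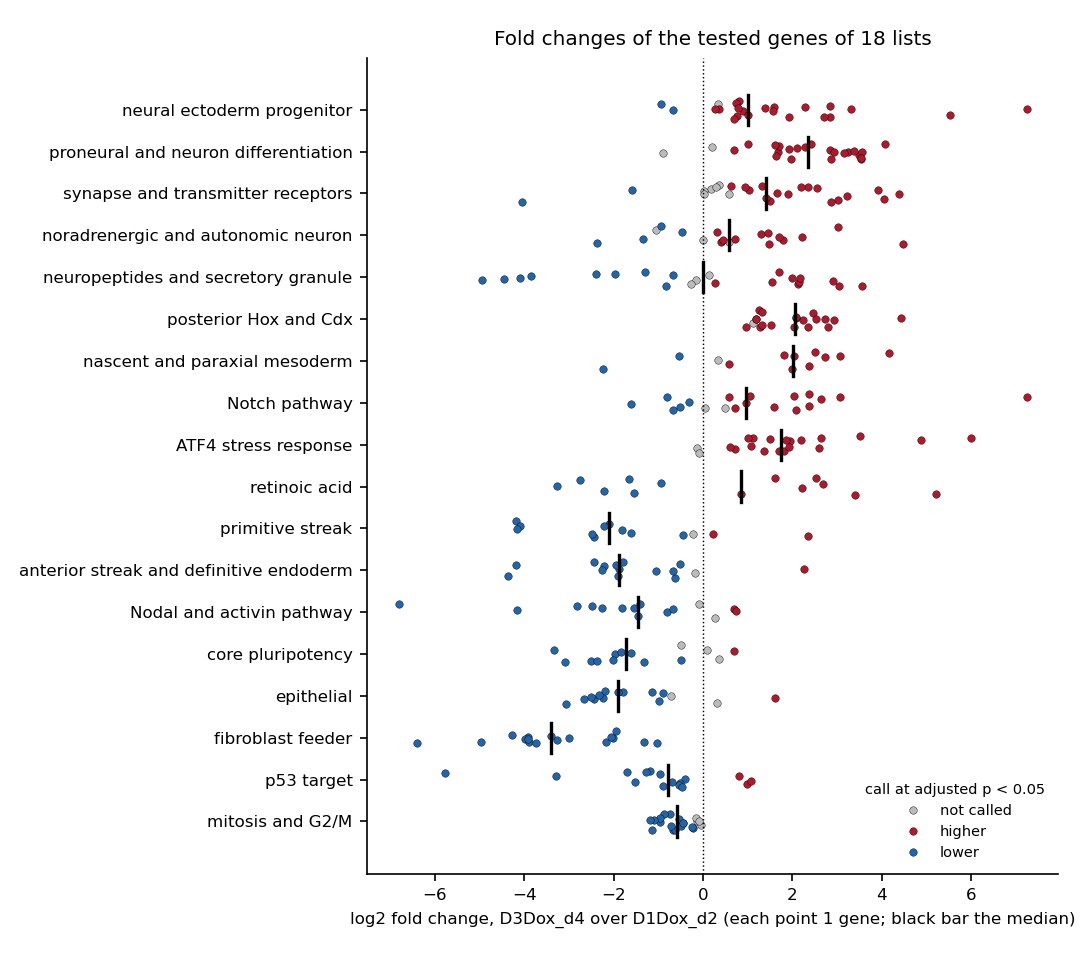
Log2 fold change, D3Dox_d4 over D1Dox_d2, of each tested gene of 18 lists; points are genes, coloured by call at adjusted p under 0.05, and black bars are list medians. The 17 fibroblast feeder genes lie left of 0, and the 20 posterior Hox and Cdx genes right of it.

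Most genes of the primitive streak and of the endoderm that arises from its anterior end were lower although Mixl1 was not. In the primitive streak list 10 of 13 tested genes were lower and 2, Wnt3a and the induced Mixl1 itself, higher, with a median log2 fold change of -2.10, and in the anterior streak and definitive endoderm list 13 of 15 were lower and 1 higher, with a median log2 fold change of -1.89. The primitive streak count of 2 higher was 1 without D3Dox_d4 replicate 3 or any 1 of the D1Dox_d2 replicates, where Mixl1 was not called. Eomes, a T-box factor of mesoderm and endoderm, was at 2.78, 3.65 and 3.46 CPM in D3Dox_d4, against 57.4, 64.6 and 57.2 CPM in D1Dox_d2 (log2 fold change -4.20 ± 0.12 SE, adjusted p = 4.19e-09). T, or brachyury, was at 7.34, 17.3 and 9.99 CPM in D3Dox_d4, against 51.1, 52.5 and 54.9 CPM in D1Dox_d2 (log2 fold change -2.21 ± 0.24 SE, adjusted p = 1.62e-05). Cer1, a secreted Nodal antagonist of the anterior endoderm, was at 2.67, 4.98 and 4.58 CPM in D3Dox_d4, against 83.9, 88.2 and 77.5 CPM in D1Dox_d2 (log2 fold change -4.37 ± 0.18 SE, adjusted p = 2.13e-08). All 3 separated the groups without overlap. Dkk1, an inhibitor of Wnt signalling, was at 31.2, 34.7 and 29.5 CPM in D3Dox_d4, against 148, 157 and 134 CPM in D1Dox_d2 (log2 fold change -2.22 ± 0.09 SE, adjusted p = 3.04e-08), and its NoDox means were 8.46 CPM in NoDox_d4 and 4.65 CPM in NoDox_d2. Gsc, a homeobox factor of the organizer, was an exception. It was at 35.1, 31.1 and 27.9 CPM in D3Dox_d4, against 39, 36.3 and 30.5 CPM in D1Dox_d2 (log2 fold change -0.19 ± 0.12 SE, adjusted p = 0.185), the groups overlapped, and the NoDox means were 1.21 CPM in NoDox_d4 and 1.63 CPM in NoDox_d2. Definitive endoderm factors were low in both groups and called lower in D3Dox_d4, with Foxa2 at 5.86 ± 1.01 CPM in D3Dox_d4 and 8.31 ± 0.858 CPM in D1Dox_d2 (SD, n = 3 each) and Sox17 at 0.756 ± 0.209 CPM in D3Dox_d4 and 1.55 ± 0.364 CPM in D1Dox_d2 (SD, n = 3 each). Both calls were lost without D3Dox_d4 replicate 3 (adjusted p = 0.0534 for Foxa2 and 0.0706 for Sox17) and without D1Dox_d2 replicate 1 (adjusted p = 0.0644 and 0.0834). Wnt3a, which maintains the streak and posterior progenitors, and Cxcr4, the chemokine receptor used to mark endoderm, rose by 2.36 and 2.25 on the log2 scale.

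Nodal pathway genes fell with the streak genes, 11 of 15 lower against 2 higher and a median log2 fold change of -1.47. Nodal was at 9.8, 8.55 and 9.51 CPM in D3Dox_d4, against 50.7, 54 and 48.4 CPM in D1Dox_d2 (log2 fold change -2.48 ± 0.10 SE, adjusted p = 1.92e-08) and its co-receptor Tdgf1 at 19.7, 25.6 and 20.4 CPM in D3Dox_d4, against 393, 405 and 367 CPM in D1Dox_d2 (log2 fold change -4.17 ± 0.12 SE, adjusted p = 3.78e-09). The feedback inhibitor Lefty1 was at 53.2, 37.2 and 36.5 CPM in D3Dox_d4, against 222, 202 and 179 CPM in D1Dox_d2 (log2 fold change -2.26 ± 0.15 SE, adjusted p = 4.58e-07), and Fst, which binds activin, at 63.3, 58.2 and 60.05 CPM in D3Dox_d4, against 215, 197 and 218 CPM in D1Dox_d2 (log2 fold change -1.81 ± 0.08 SE, adjusted p = 3.67e-08). A ligand, its co-receptor and the inhibitors named were thus all lower. The 2 that rose were receptors, Acvr2a by 0.74 and Acvr1b by 0.70 on the log2 scale.

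Pluripotency genes were lower. Of 14 tested core genes, 10 were lower, 1 was higher and 3 were not called, with a median log2 fold change of -1.73. Pou5f1 was at 62.5, 72.3 and 58.6 CPM in D3Dox_d4, against 268, 249 and 249.7 CPM in D1Dox_d2 (log2 fold change -2.005 ± 0.10 SE, adjusted p = 5.25e-08), 4.01-fold lower, and Nanog at 13.9, 19.1 and 12 CPM in D3Dox_d4, against 36.7, 38.9 and 36.3 CPM in D1Dox_d2 (log2 fold change -1.33 ± 0.15 SE, adjusted p = 2.46e-05). The orphan receptor gene Esrrb, a naive-state factor, was at 8.24, 9.03 and 9.83 CPM in D3Dox_d4, against 80.9, 97.8 and 90.5 CPM in D1Dox_d2 (log2 fold change -3.33 ± 0.11 SE, adjusted p = 6.20e-09), and its NoDox means were 3.29 CPM in NoDox_d4 and 3.7 CPM in NoDox_d2. The gene that rose was Sox2, which neural progenitors also use. Among primed epiblast genes 6 of 14 were higher and 7 lower. Fgf5 fell by 4.10 on the log2 scale, at means of 1.97 CPM in D3Dox_d4 and 33.4 CPM in D1Dox_d2, while Pou3f1 and Sox4 rose by 1.18 and 1.36.

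Epithelial genes were lower in 12 of 15 cases and higher in 1, with a median log2 fold change of -1.90. Cdh1, which encodes E-cadherin, was at 9.18, 13.9 and 12.1 CPM in D3Dox_d4, against 38.6, 42.8 and 39.2 CPM in D1Dox_d2 (log2 fold change -1.80 ± 0.14 SE, adjusted p = 1.25e-06). The adhesion molecule gene Epcam averaged 10.1 ± 1.47 CPM in D3Dox_d4 and 47.1 ± 4.37 CPM in D1Dox_d2 (SD, n = 3 each, log2 fold change -2.24 ± 0.12 SE, adjusted p = 1.21e-07). The keratin gene Krt8 was at 59, 78.2 and 59.6 CPM in D3Dox_d4, against 362, 407 and 334 CPM in D1Dox_d2 (log2 fold change -2.50 ± 0.13 SE, adjusted p = 7.44e-08). Cdh2, or N-cadherin, rose by 0.85 on the log2 scale. The gene that rose in the epithelial list was the tight-junction gene Cldn3, at 6.07 ± 0.759 CPM in D3Dox_d4 and 1.95 ± 0.181 CPM in D1Dox_d2 (SD, n = 3 each). The mesenchymal list had 5 genes higher and 7 lower of 15, and so was divided. Fn1, which encodes fibronectin, was at 156, 269 and 263 CPM in D3Dox_d4, against 724, 862 and 961 CPM in D1Dox_d2 (log2 fold change -1.91 ± 0.19 SE, adjusted p = 9.68e-06), and Vim, or vimentin, at 728 ± 82.8 CPM in D3Dox_d4 and 1188 ± 37.1 CPM in D1Dox_d2 (SD, n = 3 each, log2 fold change -0.73 ± 0.10 SE, adjusted p = 8.08e-05).

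Fibroblast genes were lower without exception. All 17 tested genes of the fibroblast feeder list were called lower, with a median log2 fold change of -3.40 and a range from -6.41 to -1.04. Col1a1, the main collagen of fibroblasts, was at 51.6, 61.5 and 62 CPM in D3Dox_d4, against 513, 520.4 and 629.6 CPM in D1Dox_d2 (log2 fold change -3.27 ± 0.12 SE, adjusted p = 1.33e-08). Col3a1, another fibrillar collagen, was at 20.9, 16.3 and 19.2 CPM in D3Dox_d4, against 289, 267 and 325 CPM in D1Dox_d2 (log2 fold change -3.98 ± 0.12 SE, adjusted p = 5.52e-09). Postn, a matrix protein, was at 4.99, 4.94 and 5.97 CPM in D3Dox_d4, against 76, 67.2 and 94.4 CPM in D1Dox_d2 (log2 fold change -3.92 ± 0.15 SE, adjusted p = 1.77e-08). The list summed to 519.7 to 626 CPM in D3Dox_d4 and 2333 to 2894 CPM in D1Dox_d2, against 279 to 881.5 CPM in NoDox_d4 and 556 to 685 CPM in NoDox_d2. In bulk RNA, fewer cells of a type and less RNA per cell cannot be told apart.

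The same D1Dox_d2 libraries held transcripts of both X inactivation and the Y chromosome, and NoDox libraries held them at lower levels. The sex-linked list summed to 17.12 to 25.04 CPM in D1Dox_d2 and 0.1194 to 0.8481 CPM in D3Dox_d4. Its sum was 1.673 to 3.142 CPM in NoDox_d2 and 0.631 to 1.179 CPM in NoDox_d4. Xist, the RNA that coats the inactive X chromosome, was at 0.145, 0.627 and 0.0796 CPM in D3Dox_d4, against 12.1, 15.9 and 19.7 CPM in D1Dox_d2 (log2 fold change -5.78 ± 0.39 SE, adjusted p = 5.95e-07). Of the Y chromosome, Ddx3y averaged 0.0615 CPM in D3Dox_d4 and 2.59 CPM in D1Dox_d2, and Eif2s3y 0.0123 CPM in D3Dox_d4 and 1.28 CPM in D1Dox_d2. For Uty, also Y-linked, D3Dox_d4 had 0 read pairs and D1Dox_d2 had 42, at least 15.1-fold lower in D3Dox_d4 with a floor of 3 read pairs over the group. Lateral plate and cardiac mesoderm genes (6 of 11 lower, 2 higher) and blood and endothelium genes (8 of 12 lower, 2 higher) were more often lower, with median log2 fold changes of -1.43 and -0.93. No lateral plate gene was called higher without D3Dox_d4 replicate 2, D3Dox_d4 replicate 3 or D1Dox_d2 replicate 2, and 1 was without D1Dox_d2 replicate 1 or 3. The blood and endothelium list had 1 gene higher without D3Dox_d4 replicate 2 or any 1 of the D1Dox_d2 replicates. Actc1, a muscle actin, averaged 2.44 ± 0.253 CPM in D3Dox_d4 and 75.8 ± 5.74 CPM in D1Dox_d2 (SD, n = 3 each, log2 fold change -4.98 ± 0.12 SE, adjusted p = 1.52e-09). Prrx1, a homeobox factor of limb and face mesenchyme, averaged 11.1 ± 1.41 CPM in D3Dox_d4 and 67.8 ± 12.8 CPM in D1Dox_d2 (SD, n = 3 each, log2 fold change -2.63 ± 0.15 SE, adjusted p = 1.56e-07), and Tbx20, a T-box factor of the heart, 35.5 ± 5.32 CPM in D3Dox_d4 and 94.7 ± 9.72 CPM in D1Dox_d2 (SD, n = 3 each, log2 fold change -1.43 ± 0.12 SE, adjusted p = 2.50e-06). Cdh5, the cadherin of endothelium, averaged 0.0497 CPM in D3Dox_d4 and 0.612 CPM in D1Dox_d2. The part of fibroblast and sex-linked transcripts in the genes lower in D3Dox_d4, Mmp3 and Inhba included, was not tested. The call of every list gene named in this paragraph and the one before stood with any 1 library left out.

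**Figure D4:**
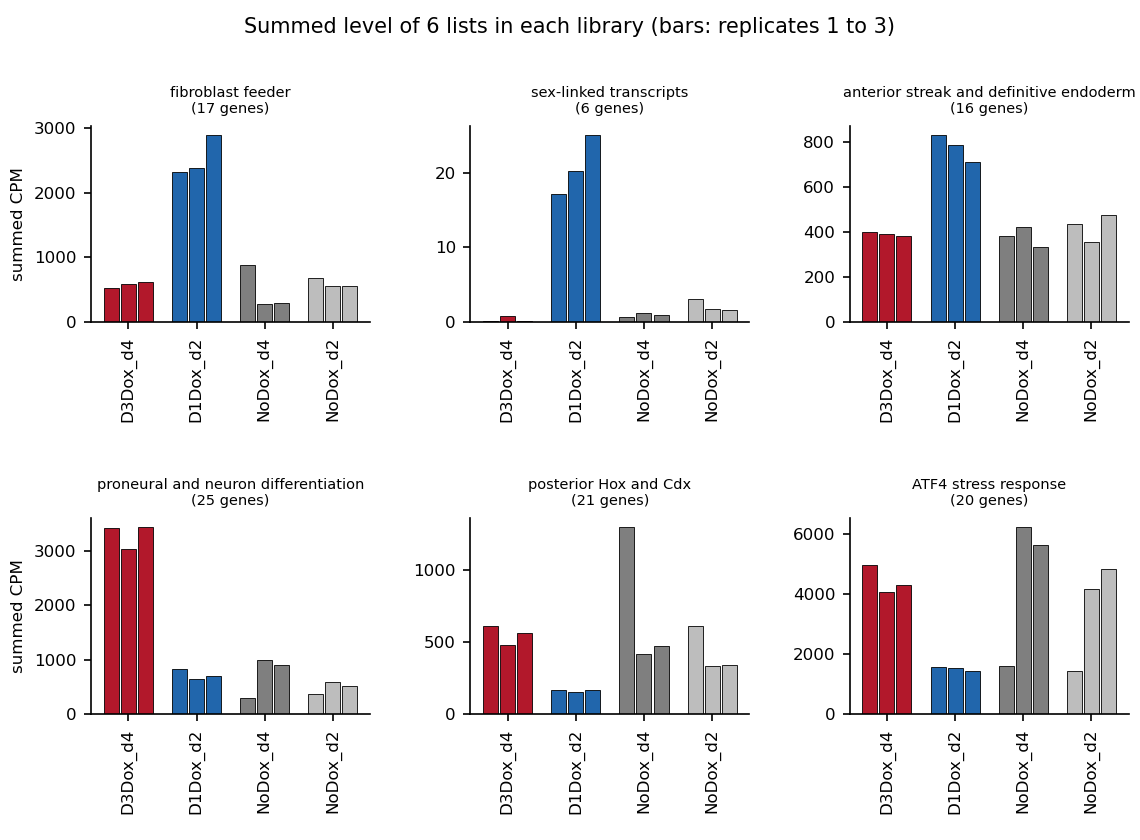
Summed CPM of 6 lists in each of the 12 libraries, with replicates 1 to 3 as neighbouring bars and D3Dox_d4 left of D1Dox_d2. Fibroblast and sex-linked sums are highest in the 3 D1Dox_d2 libraries, and the ATF4 sum is lowest in D1Dox_d2 and in replicate 1 of both NoDox groups.

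Amino acid response genes were higher. ATF4 is the transcription factor that cells translate when amino acids are short or the endoplasmic reticulum is stressed, and it activates genes of amino acid synthesis and transport. Of the 20 genes of the ATF4 list, 18 were higher, none was lower and 2 were not called, with a median log2 fold change of 1.75. Without D3Dox_d4 replicate 1, 1 was lower. Asns, asparagine synthetase, was at 564, 431 and 474 CPM in D3Dox_d4, against 80.7, 78.5 and 72.7 CPM in D1Dox_d2 (log2 fold change 2.65 ± 0.11 SE, adjusted p = 2.65e-08). Chac1, which degrades glutathione, was at 77.8, 63.6 and 69 CPM in D3Dox_d4, against 2.69, 1.67 and 2.64 CPM in D1Dox_d2 (log2 fold change 4.89 ± 0.16 SE, adjusted p = 7.71e-09), and Trib3, a pseudokinase that restrains ATF4, at 62.1, 39.5 and 41.4 CPM in D3Dox_d4, against 4.58, 3.34 and 4.42 CPM in D1Dox_d2 (log2 fold change 3.52 ± 0.20 SE, adjusted p = 1.77e-07). The serine synthesis gene Psat1 rose by 1.81 on the log2 scale, the stress-induced Ddit3 by 1.70 and Atf4 itself by 0.72. Atf3 and Cebpb were not called.

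The ATF4 list also divided the NoDox libraries, within each day. The list summed to 4066 to 4960.0 CPM in D3Dox_d4 and 1436 to 1550.0 CPM in D1Dox_d2. In NoDox_d4 the sum was 1593 CPM in replicate 1 and 5608 and 6207 CPM in the other replicates, and in NoDox_d2 it was 1434 CPM in replicate 1 and 4153 and 4820.0 CPM in the others. The retinoic acid list divided the libraries the same way, at 2347 to 3044 CPM in D3Dox_d4, 585 to 654 CPM in D1Dox_d2, 1196, 3448 and 3471 CPM in NoDox_d4 and 654.6, 3136 and 2879 CPM in NoDox_d2. Crabp1 in replicate 1 was at 311 CPM in NoDox_d4 and 138 CPM in NoDox_d2. Other lists set replicate 1 apart too. The neural progenitor sum was 1278, 2559 and 2713 CPM in NoDox_d4 (replicates 1 to 3) and 1135, 1960 and 1870 CPM in NoDox_d2. The proneural and neuron sum was 291.7, 993.2 and 897.4 CPM in NoDox_d4 and 360.5, 579.6 and 518.6 CPM in NoDox_d2. The epithelial sum did so in NoDox_d2 only, at 1051, 544.6 and 593.1 CPM. What sets replicate 1 of the NoDox groups apart, and its part in the differences of these and other lists, was not tested.

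The promoters of Asns and Chac1, which rose, and of Atf3, which did not pass, are shown because each holds the composite motif that ATF4 binds with a C/EBP partner. The letters searched were TGATGNAA and its reverse complement TTNCATCA, where N is any base, and matches are in capitals. Asns lies at chr6:7693160-7693459 on the minus strand, Chac1 at chr2:119350992-119351291 on the plus strand and Atf3 at chr1:191183284-191183583 on the minus strand.
Asns: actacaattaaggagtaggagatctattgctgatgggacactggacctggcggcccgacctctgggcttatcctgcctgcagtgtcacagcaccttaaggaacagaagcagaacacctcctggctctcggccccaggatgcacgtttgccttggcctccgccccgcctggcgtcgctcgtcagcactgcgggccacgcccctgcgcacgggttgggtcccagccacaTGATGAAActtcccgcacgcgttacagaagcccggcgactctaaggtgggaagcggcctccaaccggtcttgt
Chac1: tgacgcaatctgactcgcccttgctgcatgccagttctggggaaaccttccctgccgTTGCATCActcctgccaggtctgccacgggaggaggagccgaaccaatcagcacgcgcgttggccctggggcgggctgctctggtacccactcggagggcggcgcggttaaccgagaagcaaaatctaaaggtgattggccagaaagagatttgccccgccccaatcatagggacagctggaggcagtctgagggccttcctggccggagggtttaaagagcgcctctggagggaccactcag
Atf3: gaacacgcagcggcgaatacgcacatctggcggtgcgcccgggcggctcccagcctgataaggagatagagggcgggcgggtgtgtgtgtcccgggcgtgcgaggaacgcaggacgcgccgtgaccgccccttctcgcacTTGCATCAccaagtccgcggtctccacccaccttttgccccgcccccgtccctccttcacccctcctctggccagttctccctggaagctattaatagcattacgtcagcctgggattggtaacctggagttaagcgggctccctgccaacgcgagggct
The matches begin 23 bases before the start site of Asns, 193 before that of Chac1 and 110 before that of Atf3. The motif is in 1304 of 32851 RefSeq promoters (3.97%), and 1219 of 27025 gene symbols (4.51%) have a promoter that holds it. Of the 20 list genes, 19 matched a promoter and 8 hold the motif. Genes were put on this list as known ATF4 targets, so the count describes the list and supports nothing about these libraries.

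Targets of p53 were lower in 13 of 16 cases and higher in 3, with a median log2 fold change of -0.79. Mdm2, which degrades p53, was at 69.1, 71.9 and 72.2 CPM in D3Dox_d4, against 159, 159.5 and 162 CPM in D1Dox_d2 (log2 fold change -1.19 ± 0.07 SE, adjusted p = 2.20e-07). Ccng1, a cyclin gene that p53 activates, averaged 228 ± 10.8 CPM in D3Dox_d4 and 441 ± 18.2 CPM in D1Dox_d2 (SD, n = 3 each, log2 fold change -0.97 ± 0.08 SE, adjusted p = 1.71e-06), and Perp, a desmosomal protein, 8.5 ± 0.435 CPM in D3Dox_d4 and 82.2 ± 1.31 CPM in D1Dox_d2 (SD, n = 3 each, log2 fold change -3.29 ± 0.09 SE, adjusted p = 2.62e-09). Cdkn1a, the cell cycle inhibitor p21, fell by 0.51 on the log2 scale. Sesn2, which is also a target of ATF4, rose by 1.07 on the log2 scale, with Bbc3 and Btg2 the other genes that rose. Genes of proliferation were lower by small amounts. In mitosis 16 of 20 were lower and in DNA replication 14 of 21, none was higher in either list (1 of the DNA replication list was without D3Dox_d4 replicate 3 or D1Dox_d2 replicate 1), and the median log2 fold changes were -0.58 and -0.42. Mki67, a marker of cycling cells, averaged 202 ± 47.9 CPM in D3Dox_d4 and 439 ± 38.9 CPM in D1Dox_d2 (SD, n = 3 each, log2 fold change -1.14 ± 0.15 SE, adjusted p = 9.78e-05). Plk1, a mitotic kinase, averaged 73.7 ± 2.94 CPM in D3Dox_d4 and 165 ± 2.67 CPM in D1Dox_d2 (SD, n = 3 each, log2 fold change -1.18 ± 0.07 SE, adjusted p = 2.60e-07), and Pcna, the clamp of DNA polymerase, 178 ± 21.9 CPM in D3Dox_d4 and 215 ± 21.5 CPM in D1Dox_d2 (SD, n = 3 each, log2 fold change -0.29 ± 0.11 SE, adjusted p = 0.0353). The call of Pcna was lost without D3Dox_d4 replicate 2 or 3 and without D1Dox_d2 replicate 1 or 2 (adjusted p = 0.0875 to 0.164). With a fold of more than 1.5 required, 7 mitosis genes and 2 replication genes were called lower.

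Signalling pathways other than Nodal were divided. Of 26 Wnt pathway genes 7 were higher and 13 lower. The direct target Axin2 was not called, at 68.2 ± 5.3 CPM in D3Dox_d4 and 74.5 ± 3.24 CPM in D1Dox_d2 (SD, n = 3 each, log2 fold change -0.15 ± 0.08 SE, adjusted p = 0.146). The secreted antagonists Dkk2 and Wif1 fell by 4.16 and 3.07 on the log2 scale and the antagonists Sfrp2 and Sfrp5 rose by 1.94 and 4.24. Of 22 BMP and TGF-beta genes 6 were higher and 10 lower. Ligands Bmp4, Bmp2 and Tgfb1 fell by 1.72, 1.77 and 2.14 on the log2 scale, and the BMP antagonist Grem1 was at 5.28, 6.53 and 5.77 CPM in D3Dox_d4, against 103, 105 and 130.3 CPM in D1Dox_d2 (log2 fold change -4.28 ± 0.13 SE, adjusted p = 5.62e-09). The target genes Id2, Id3 and Id4 rose by 1.17, 1.04 and 2.15 on the log2 scale, so these ligands and targets moved in opposite directions. Of 22 FGF pathway genes 8 were higher and 11 lower, with Fgf15 up by 1.91 and Fgfr2 by 1.69, and the inhibitor Spry4 and the target Etv5 down by 1.53 and 0.89 on the log2 scale. Of 14 insulin-like growth factor genes 4 were higher and 8 lower, and the binding proteins were divided by member. Igfbp3 averaged 16.8 ± 0.966 CPM in D3Dox_d4 and 137 ± 6.5 CPM in D1Dox_d2 (SD, n = 3 each, log2 fold change -3.05 ± 0.09 SE, adjusted p = 3.78e-09), and Igfbp5 18.7 ± 4.71 CPM in D3Dox_d4 and 129.6 ± 11.7 CPM in D1Dox_d2 (SD, n = 3 each, log2 fold change -2.81 ± 0.16 SE, adjusted p = 1.76e-07). Igfbp2 was higher, at 265 ± 38.6 CPM in D3Dox_d4 and 166 ± 6.27 CPM in D1Dox_d2 (SD, n = 3 each, log2 fold change 0.66 ± 0.11 SE, adjusted p = 3.41e-04).

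Genes of the node, notochord and Hedgehog list were near the background, with 4 of 11 tested higher and 3 lower. With a minimum fold of 1.5 in the test 0 were higher, and with all 12 libraries in the fit 1 was. The list's Hedgehog targets named here are Ptch1 and Gli1. The target Ptch1 averaged 63.2 ± 7.36 CPM in D3Dox_d4 and 49.9 ± 2.98 CPM in D1Dox_d2 (SD, n = 3 each, log2 fold change 0.32 ± 0.10 SE, adjusted p = 0.0153) and the target Gli1 4.13 ± 0.659 CPM in D3Dox_d4 and 6.64 ± 1.75 CPM in D1Dox_d2 (SD, n = 3 each, log2 fold change -0.71 ± 0.22 SE, adjusted p = 0.0159), so these targets moved in opposite directions. The call of Gli1 was lost without D1Dox_d2 replicate 1 or replicate 3 (adjusted p = 0.0542 and 0.0707), and that of Ptch1 without D1Dox_d2 replicate 2 (adjusted p = 0.0673). Among imprinted genes 6 of 21 were higher and 9 lower. Cdkn1c, a growth inhibitor, was at 414, 306 and 333 CPM in D3Dox_d4, against 70.9, 57.8 and 61.7 CPM in D1Dox_d2 (log2 fold change 2.45 ± 0.13 SE, adjusted p = 9.03e-08), and Peg10, a retrotransposon-derived placental gene, at 875, 1064 and 1157 CPM in D3Dox_d4, against 4647, 5103 and 5153 CPM in D1Dox_d2 (log2 fold change -2.29 ± 0.12 SE, adjusted p = 7.90e-08). Interferon response genes were lower in 13 of 19 cases and higher in 2, with a median log2 fold change of -0.93. The guanylate-binding protein gene Gbp2 was at 0.47, 0.701 and 0.955 CPM in D3Dox_d4, against 18.9, 21.8 and 18.5 CPM in D1Dox_d2 (log2 fold change -4.82 ± 0.20 SE, adjusted p = 2.24e-08), with NoDox means of 2.74 CPM in NoDox_d4 and 32.1 CPM in NoDox_d2, and H2-K1 of class I MHC rose by 1.28 on the log2 scale. Of 16 tested genes of the immediate early and heat shock list, 10 were lower, 2 higher and 4 not called, with a median log2 fold change of -0.48. With a minimum fold of 1.5 in the test, 6 were lower. Among the lower immediate early genes were Fos, at 18.8 ± 2.31 CPM in D3Dox_d4 and 77 ± 3.27 CPM in D1Dox_d2 (SD, n = 3 each, log2 fold change -2.06 ± 0.10 SE, adjusted p = 6.26e-08), and Egr1, at 11.5 ± 0.476 CPM in D3Dox_d4 and 42.5 ± 6.09 CPM in D1Dox_d2 (SD, n = 3 each, log2 fold change -1.90 ± 0.12 SE, adjusted p = 3.41e-07). Of the 20 genes of glycolysis and hypoxia 9 were higher, 4 lower and 7 not called, with a median log2 fold change of 0.24, and 5 were higher with a minimum fold of 1.5 in the test. Vegfa, an angiogenic growth factor, was higher, at 217 ± 10.8 CPM in D3Dox_d4 and 51.5 ± 2.07 CPM in D1Dox_d2 (SD, n = 3 each, log2 fold change 2.06 ± 0.08 SE, adjusted p = 1.97e-08), and Ldha was not called, at 792 ± 115 CPM in D3Dox_d4 and 863 ± 55.5 CPM in D1Dox_d2 (SD, n = 3 each). Of the 13 protein-coding genes of the mitochondrial genome 2 were higher, 2 lower and 9 not called, while of all 24 of its genes tested, those of ribosomal and transfer RNAs included, 2 were higher and 11 lower. Lists of other embryonic lineages had 4 of 6 tested genes lower for visceral and yolk sac endoderm, 4 of 6 for germ cells, 4 of 5 for trophoblast and 9 of 19 for surface ectoderm and neural border, against 0, 0, 1 and 4 higher. The visceral and yolk sac count rests on single libraries, since it was 2 of 6 lower without D3Dox_d4 replicate 3, D1Dox_d2 replicate 2 or D1Dox_d2 replicate 3. In each of the visceral and germ cell lists, 1 gene was called higher when some single libraries were left out.

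**Figure D5:**
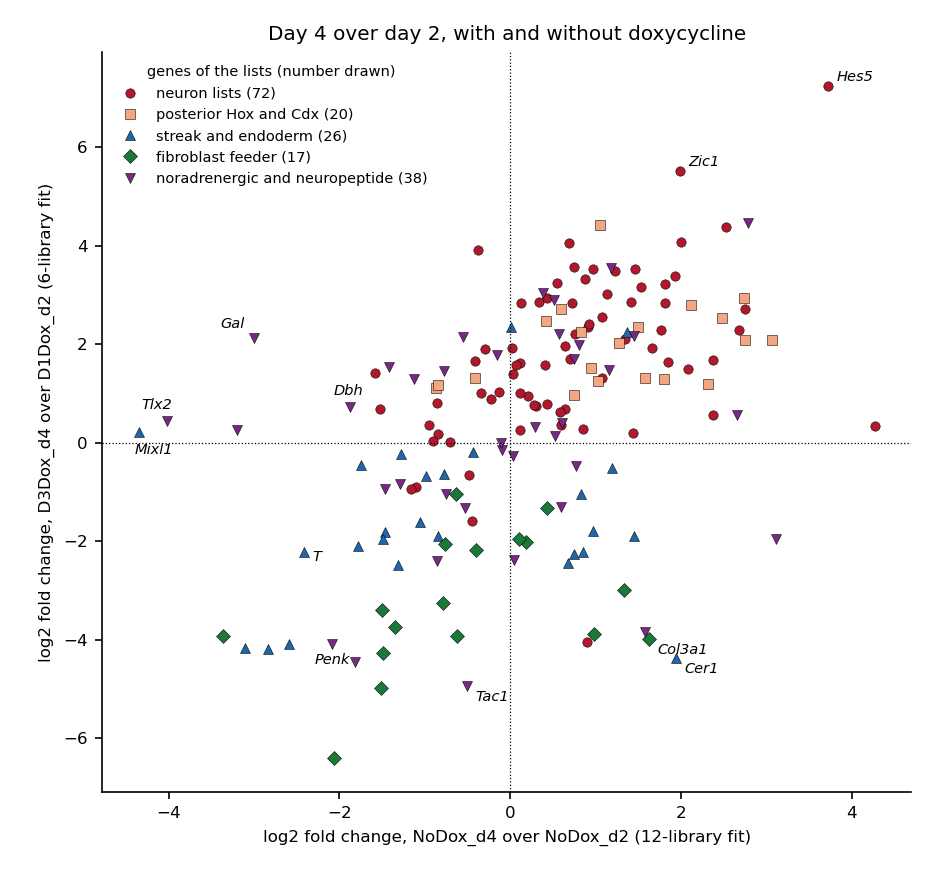
Log2 fold change of D3Dox_d4 over D1Dox_d2 (vertical) against that of NoDox_d4 over NoDox_d2 (horizontal) for genes of 9 lists, each point 1 gene. Hes5 and Zic1 are positive on both axes, T and Penk negative on both, and Cer1 and Col3a1 are negative with doxycycline and positive without it.

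Many of the differences had the same direction between the same days without doxycycline, at shares near that over all genes tested. NoDox_d4 against NoDox_d2, fitted with all 12 libraries, called 1926 of 18109 genes (10.6%), 921 higher (5.09%) and 1005 lower (5.55%). Of the 5323 genes higher in D3Dox_d4, 651 were called in the same direction without the drug and 75 in the opposite one, and 74.3% had the same sign. Of the 5239 lower, 732 were called in the same direction and 81 in the opposite one, and 71.8% had the same sign. Over all 17197 genes tested, which include these, the counts were 1597 and 280, and 66.7% had the same sign. Replicate 1 of each NoDox group lay far from the others, and without these 2 libraries the NoDox comparison called 4534 genes.

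The difference between both day comparisons was tested gene by gene with all 12 libraries, as (D3Dox_d4 minus D1Dox_d2) minus (NoDox_d4 minus NoDox_d2). It was called for 2336 genes (12.9%), 1206 positive (6.66%) and 1130 negative (6.24%), and for 6424 genes without replicate 1 of both NoDox groups. Dkk1 gave -3.06 ± 0.24 (adjusted p = 6.62e-05), Esrrb -3.14 ± 0.23 (adjusted p = 5.23e-05) and Cer1 -6.29 ± 0.73 (adjusted p = 6.46e-04), so their decrease with doxycycline differed from the day difference without it. Dll1 gave 2.09 ± 0.30 (adjusted p = 0.00203). For Hes5, Tubb3, Hoxb4, Asns, T and Eomes the difference did not pass, at adjusted p of 0.0954, 0.372, 0.544, 0.131, 0.908 and 0.259, which does not show that their differences were alike.

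Called genes were spread over the genome. By chromosome, the share of tested autosomal genes called higher ran from 24.7% on chromosome 13 to 34.5% on chromosome 4, and the share called lower from 25.8% on chromosome 8 to 33.7% on chromosome 1. Long noncoding RNA genes (lincRNA) were more often higher than lower, 37.5% against 18.2% of 400, while protein-coding genes were even, 32.8% against 32.0% of 14492. Among the fifth of genes with the lowest mean level, 16.9% were higher and 29.4% lower, and in the fifth with the highest 30.5% were higher and 35.0% lower. D3Dox_d4 libraries had a count for 24156 to 25321 genes and D1Dox_d2 libraries for 26556 to 27347, so more low-level genes were detected in D1Dox_d2.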

How the data were processed

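Total RNA of 12 libraries was sequenced as 150 bp read pairs and trimmed to at least 50 bp, per the labels' protocols. The authors deposited unnormalized counts per gene from featureCounts 2.0.1 on GENCODE vM25 with both ends mapped and without strand, multiple-overlap or multimapping counting, per the file headers. STAR and GRCm38/mm10 are named in the submitters' processing notes, with no version. All 12 count columns matched a sample title. Of 55487 gene IDs, 55141 matched a symbol.

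From these counts, edgeR 4.0.16 (R 4.3.3, quasi-likelihood F-test, TMM factors, filterByExpr) was fitted to the 6 libraries of D3Dox_d4 and D1Dox_d2, with group as the only term and p-values adjusted by Benjamini-Hochberg over the genes tested. A fit to all 12 libraries gave NoDox_d4 minus NoDox_d2 and the difference of both contrasts. The procedure was tested on simulated data. DESeq2 1.42.0 was an alternative, as were other scalings and filters, a replicate block, a stricter p, a minimum fold and leaving out each library. Unadjusted p under 0.05 was met by 11193 genes.

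Named genes were Mixl1, the 12 highest and 12 lowest log2 fold changes among called genes that reached 5 CPM in their higher group and had no overlap of libraries and no predicted, Rik or clone name, and members of 40 lists: defining members and those with the lowest adjusted p. Bbc3, Btg2 and a few other members outside this rule were named because a list's count turned on them. Groups, lists and members were chosen with earlier results of these data known. Of 658 list genes, 51 fell under the filter on low counts. Gene types were taken by ID from an earlier GENCODE release. Overlap with antisense genes was taken from the deposited gene models. No list was given a set test. Some results are not reported here.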

Additional observations from a re-analysis of the deposited data

Results flagged for a closer look

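For 67 of the 188 genes named in the report, the difference between D3Dox_d4 and D1Dox_d2 differed from that between NoDox_d4 and NoDox_d2 in edgeR's test of the difference itself (adjusted p under 0.05, all 12 libraries), against 12.9% of all genes tested. The named genes were partly chosen for the size of their change, so nothing is read from that share. The values below are (D3Dox_d4 minus D1Dox_d2) minus (NoDox_d4 minus NoDox_d2), on the log2 scale, 30 positive and 37 negative. A value can arise from the day difference with doxycycline, from that without it or from both. Its sign is therefore not that of a change in D3Dox_d4. Without replicate 1 of both NoDox groups the difference kept its sign and its call for each of these genes except Dmbt1 (-6.56, adjusted p = 1). For Dmbt1, with 3 read pairs in NoDox_d4 and 2 in NoDox_d2, Tlx2, with 2 in NoDox_d4, Vip, with 1 in NoDox_d4, and Eif2s3y, with 1 in D3Dox_d4, the size of the fitted value depends on the prior count.

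Among neural genes the positive values were 3.55 for Zic1, 0.91 for Sox3, 1.68 for En1, 2.74 for Neurod4, 2.83 for Neurod1, 2.72 for Dcx, 2.23 for Stmn2, 1.99 for Pou3f1 and 1.02 for Sox4. The Notch ligands Dll1 and Dll3 gave 2.09 and 2.31, whereas Hey2 and Heyl gave -2.15 and -3.05. Hey2 was not lower with doxycycline, so its negative value comes from a rise between the NoDox days. Genes of transmitters, receptors and granules gave 4.31 for Gjd2, 1.46 for Chrnb4, 1.66 for Slc18a2, 2.62 for Dbh, 4.48 for Tlx2, 5.14 for Gal, 3.49 for Vip, 2.39 for Scg3 and 2.68 for Scg5. For Dbh, Tlx2 and Vip the log2 fold changes with doxycycline were only 0.73, 0.44 and 0.27. The rest of their values comes from lower means in NoDox_d4 than in NoDox_d2, all near 0. Negative values in the same classes were -1.98 for Penk, -4.42 for Tac1, -5.42 for Grp, -4.94 for Gabra2, -2.41 for Gata3, -2.76 for Sema3e and -6.23 for Epha3.

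The streak, endoderm and Nodal genes among the 67 were negative, at -6.29 for Cer1, -3.06 for Dkk1, -3.00 for Lefty1 and -5.09 for Inhba, apart from the receptor gene Acvr1b at 0.87. Esrrb gave -3.14 and Fgf5 -2.20. Fibroblast and mesenchymal genes gave -2.46 for Col1a1, -5.59 for Col3a1, -3.28 for Postn, -4.24 for Prrx1 and -2.71 for Actc1, and the sex-linked Xist and Eif2s3y gave -4.37 and -5.75. Other genes with large decreases gave -4.92 for Mmp3, -5.12 for Pi15, -4.06 for Fgfbp1, -7.15 for Dmbt1, -4.94 for C3ar1 and -5.76 for Edn1.

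The Hox genes Hoxa2 and Hoxa3 gave 2.14 and 2.07, and Aldh1a1 gave -4.94. Signalling genes gave 4.23 for Sfrp5, -3.92 for Dkk2, -3.24 for Wif1, 1.70 for Id4, 0.99 for Igfbp2, -3.75 for Igfbp5, -2.88 for Gli1 and -1.65 for Ptch1. With doxycycline the log2 fold change was 0.32 for Ptch1 and -0.71 for Gli1. The rest of these values comes from rises between the NoDox days. Genes of the cell cycle and of p53 gave -1.40 for Mki67, -1.06 for Plk1, 1.97 for Cdkn1c, 1.16 for Bbc3 and 1.42 for Btg2, and Cldn3 and Egr1 gave 2.36 and -1.47.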

How the results depend on the processing

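The counts of genes called, 10562 in all, stayed within 1.5 times under every alternative but one. With a minimum fold of 1.5 in the test, 4871 genes were called, 2484 higher in D3Dox_d4 and 2387 lower. With all 12 libraries in the fit 7964 were called, and 7784 of these were shared with the first 10562 in the same direction. With 1 library left out, 9374 to 11272 genes were called, 4717 to 5628 higher and 4657 to 5644 lower. Leaving out D3Dox_d4 replicate 1 and D1Dox_d2 replicate 3 together, an alternative chosen after seeing the data, gave 11048. DESeq2's Wald test called 10364. Without replicate 1 of both NoDox groups, the count called for the difference of the day differences was 6424 in place of 2336, and for NoDox_d4 minus NoDox_d2 it was 4534 in place of 1926.

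The Mixl1 log2 fold change, 0.22, kept its direction and was 0.18 to 0.29 with 1 library left out. It was no longer called with upper-quartile scaling (0.20), with all 12 libraries (0.24) or, at 0.22, with an adjusted p under 0.01 or a minimum fold of 1.5. Adjusted p over all its alternatives ran from 0.00389 to 1. Of the 188 genes named, 2 that had not been called changed sign. Htr3a, at 0.0105, gave -0.000327 with DESeq2 size factors, -0.00027 with DESeq2's test, -0.0102 with upper-quartile scaling, -0.00124 with the filter at 1 CPM and -0.0225 to 0.0982 with libraries left out. Cebpb, at -0.093, gave -0.374 to 0.0829 with libraries left out. With all 12 libraries 22 of the named genes lost their call (adjusted p = 0.0558 to 0.875), namely Mixl1, Atf4, Cdh5, Cdkn1a, Cdx2, Foxa2, Gata2, Gli1, Hes7, Olig3, Pcna, Pdgfra, Ptch1, Sesn2, Sox1, Sox2, Sox17, Stmn2, Tbx6, Tlx2, Vim and Vip. In the same fit 27 of 80 list counts moved by over 1.5 times, as did 29 with the minimum fold and at most 7 in each other alternative. With all 12 libraries the neural progenitor list had 13 genes higher in place of 20. The Hox and Cdx list had 12 higher in place of 19. The cause was not tested.

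With the replicate number as a block, 11581 genes were called. Deviations from the group means of libraries with the same number correlated across genes at r = 0.39, 0.05 and 0.26 for replicates 1, 2 and 3. Between libraries with different numbers r was -0.33 to 0.21. Each D1Dox_d2 library had its highest r with the D3Dox_d4 library of its number. D3Dox_d4 replicate 2 had its highest, 0.21, with D1Dox_d2 replicate 3. The main fit took no pairing from the numbers, and whether the groups share a replicate effect was not tested. At these depths 3 counts are 0.108 to 0.124 CPM, and lower levels cannot be told from 0.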
